A study of Mus musculus with 23 samples.

Results

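The regions described here are the FLAG-BACH1 peaks that overlap an H3K4me3 peak of wild-type (WT) mouse embryonic stem cells by at least 1 bp. The regions were thus chosen by the BACH1 and WT H3K4me3 peak calls, and their overlap with WT H3K4me3 is no finding. They number 560 of the 2132 BACH1 peaks on chromosomes 1 to 19, X and Y (26.3%), and they lie in 550 of the 18779 WT H3K4me3 peaks (2.93%), which are called host peaks below. BACH1 was mapped in DoxBach1 cells, which carry a piggyBac transgene for BACH1 with a C-terminal FLAG tag and had received 0.5 μg/μL doxycycline, per the labels, for 6 hours. The tagged protein is thus overexpressed, and it was precipitated through its tag. NANOG, H3K4me1, H3K4me3 and H3K27ac were mapped in WT cells and in Bach1 knockout cells made with CRISPR/Cas9, with 2 NANOG lists per genotype and 1 list for each histone mark. All cells are E14Tg2A embryonic stem cells kept on gelatin in serum with leukemia inhibitory factor, and the labels name no clone. BACH1 binding and the marks therefore come from different cells, and a trait of the knockout cells other than the Bach1 edit would look the same in these lists. Sample descriptions of NANOG replicate 1, H3K4me1 and BACH1 share a tag that the remaining ChIP samples lack. The tag thus cannot be told apart from the replicate for NANOG, or from the mark for the other lists. Each NANOG list of replicate 1 pools 2 sequencing runs, and the run numbers named for the knockout list and for the H3K4me1 lists do not all match the described samples.

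BACH1 is a basic leucine zipper factor that pairs with small MAF proteins on DNA elements shared with NRF2 and represses genes of heme breakdown and antioxidant defence until heme releases it. H3K4me3 is laid down by SET1 and MLL complexes and marks promoters, H3K4me1 marks enhancers and the flanks of promoters, and H3K27ac marks active elements of both kinds. NANOG is a homeobox factor of the pluripotent state. Positions are on mm9, the build the submitters' processing notes name. Gene start sites of that build were not analysed here, so no gene is assigned to a region and whether each lies at an annotated promoter was not tested.

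The peak lists differed in length between genotypes, which bears on every comparison below. WT and knockout lists held 18779 and 11157 peaks for H3K4me3, 44579 and 25755 for H3K27ac, and 35990 and 54210 for H3K4me1. For NANOG they held 9242 and 2070 in replicate 1 but 10031 and 20025 in replicate 2, so the genotype with the longer list is the opposite one in the 2 replicates. Read depth is unknown for these lists, and its part in their lengths was not tested. Bach1 RNA was 2.35, 2.50 and 2.70 TPM in WT and 1.69, 1.76 and 2.04 TPM in knockout cells (3 libraries each). Knockout cells thus still held Bach1 RNA, and the difference between the groups was not tested. The position of the edit was not analysed here.

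BACH1 peaks at H3K4me3 ranged widely in strength. The authors' peak score, given here as −log10 p, ran from 5.01 to 87.0 with a median of 7.29 and quartiles of 5.73 and 12.4, beside a median of 7.23 in the 1572 other BACH1 peaks. The lower quartile lies close to the lowest score, so many of these peaks are weak. Their median width was 928 bp (quartiles 757 and 1198), beside 765 bp (614 and 932) in the other BACH1 peaks. All 560 were also in the authors' merged BACH1 list, where 2780 of 9319 regions (29.8%) overlapped WT H3K4me3.

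Most of the peaks lay wholly inside their H3K4me3 hosts. Position in the host is bounded by the overlap that chose the regions and by the widths of both peaks. It is given as a description, and random placement was not compared. Of the 560, 464 (82.9%) were wholly inside H3K4me3 and 96 (17.1%) reached across an edge. The median distance between the centre of a BACH1 peak and that of its host was 602 bp, and 365 peaks (65.2%) had their centre within 50% of the way from the host's centre to its edge. Few contacts were slight: 4 peaks overlapped by under 100 bp, and 60 other BACH1 peaks lay within 1000 bp of a WT H3K4me3 peak. The smallest overlaps were 6 bp at chr15:97616812-97617863, 21 bp at chr7:87333179-87334245 and 53 bp at chr14:35172942-35173632. The smallest gaps outside were 1 bp at chr6:34268246-34268812, 26 bp at chr7:86415365-86416629 and 28 bp at chr11:116558135-116559371. BACH1 −log10 p at these 6 was 28.1, 22.9, 5.56, 5.29, 19.6 and 8.06, in that order, so both sides of the rule held strong and weak peaks.

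Host peaks were wider than other WT H3K4me3 peaks. Their median width was 3186 bp (quartiles 2248 and 4855) against 2430 bp (1796 and 3291) in the 18229 WT H3K4me3 peaks without BACH1, and their median −log10 p was 34.9 against 29.5. By quintile of WT H3K4me3 width, 1.54, 1.92, 2.08, 2.80 and 6.31% of the peaks held a BACH1 peak. By quintile of H3K4me3 score the shares were 2.66, 2.69, 2.64, 2.90 and 3.75%, a flatter course. Both measures belong to the choice of regions and are given as a description.

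The 10 strongest of these BACH1 peaks lay in both very weak and very strong H3K4me3. The strongest, chr8:87025100-87026450, had a BACH1 −log10 p of 87.0 in a host with −log10 p of 8.05, close to the threshold. The next, chr3:122958783-122960332 at 77.0 and chr8:77606560-77608565 at 76.2, had hosts with 6.21 and 5.26. These 3 hosts were among the weakest WT H3K4me3 peaks, and none of them had a knockout H3K4me3 peak. All 3 regions overlapped H3K4me1 in both genotypes, with fold enrichments of 2.75, 2.65 and 3.24 in WT and 3.56, 3.16 and 3.41 in knockout lists.

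The other 7 of the 10 had hosts with −log10 p of 27.3 or more, each with a peak in the knockout list. They were chr16:90220469-90222027 (BACH1 66.4, host 40.8), chr11:76758601-76759849 (64.7, host 115) and chr11:75273560-75275604 (60.0, host 114). Next came chr11:95841355-95843647 (53.4, host 104), chr11:96574352-96575680 (49.9, host 41.3), chr4:116357469-116358957 (47.8, host 104) and chr9:77597949-77599019 (46.2, host 27.3). All 7 overlapped H3K27ac in both genotypes. Of the 10, 4 were in no NANOG list, 4 in 1 list and 2 in 2 lists, so 6 were in at least 1, beside 284 of all 560 (50.7%). The chr11:95841355 region was in both lists of replicate 1 (fold enrichment 9.14 in WT and 9.31 in knockout) and in neither list of replicate 2, and the chr4:116357469 region was in both lists of replicate 2 (5.26 and 5.54) and in neither of replicate 1.

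**Figure D1:**
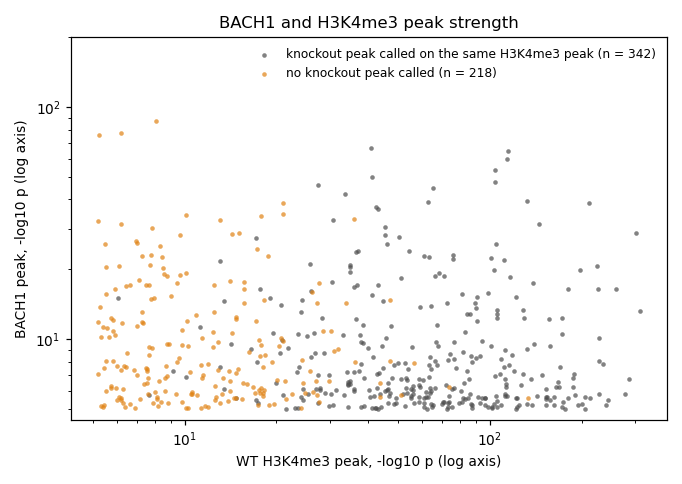
Each point is 1 of the 560 BACH1 peaks, with the −log10 p of its WT H3K4me3 host on the horizontal log axis and its own −log10 p on the vertical log axis. Orange points, whose host has no knockout H3K4me3 peak (218), gather at weak hosts, and the 3 strongest BACH1 peaks are among them.

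In WT cells most of these regions carried H3K27ac. It overlapped 438 of 560 (78.2%, exact Clopper-Pearson 95% interval 74.6 to 81.6), and H3K4me1 overlapped 264 (47.1%, interval 42.9 to 51.4). Intervals here cover the counting of peaks only, since each list is 1 sample and peaks are not replicates. Regions of equal size were compared by taking 1000 bp around each centre, the centre being that of the BACH1 peak or, without BACH1, that of the H3K4me3 peak. H3K27ac then overlapped 79.1% of the BACH1 regions, 73.6% of WT H3K4me3 peaks without BACH1 and 21.8% of the other BACH1 peaks. H3K4me1 overlapped 46.1, 36.6 and 52.7% of the same 3 groups. Windows on the centres of the 550 hosts instead gave 75.5% for H3K27ac and 50.2% for H3K4me1. With the strongest H3K27ac peak taken at each of the 438 regions, the median −log10 p was 76.8, beside 12.1 over all peaks of the WT list. These were thus mostly strong peaks for that list. H3K27ac scores at H3K4me3 peaks without BACH1 were not compared.

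Marks had different shapes around the BACH1 centre. WT H3K27ac covered 63.4% of the centres and 13.8 and 12.3% of the positions 2000 bp to either side. WT H3K4me3 covered 96.4% of the centres and 37.3 and 38.8% at that distance. H3K4me1 was lower at the centre than beside it: WT peaks covered 32.0% of the centres and at most 41.8%, at 1000 bp, and knockout peaks covered 50.4% and at most 57.5%, at 1100 bp. Regions that reached across an H3K4me3 edge had H3K4me1 in 60.4% of cases in WT, and those wholly inside in 44.4%.

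**Figure D2:**
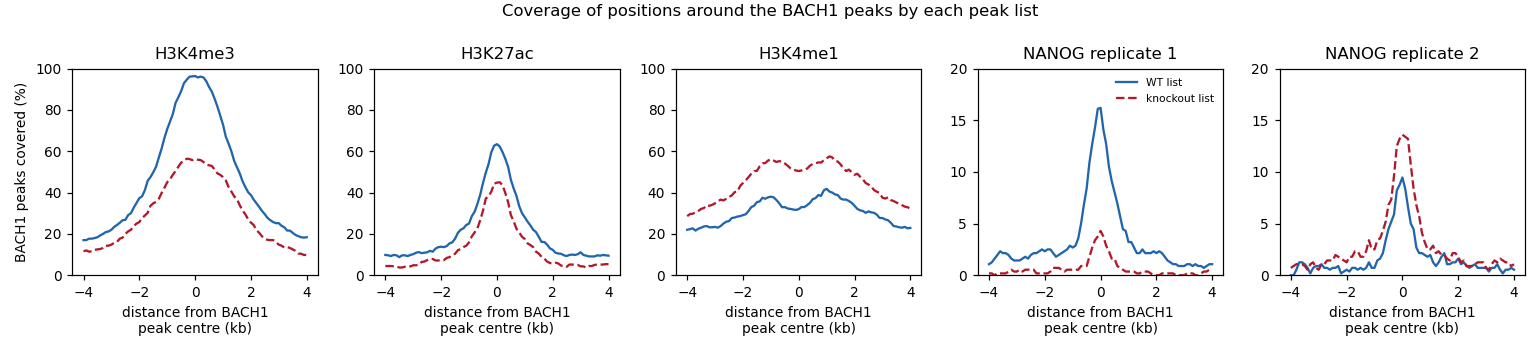
The share of the 560 BACH1 peaks covered by a peak of each list is drawn against the distance from the BACH1 peak centre in kb, solid for WT and dashed for knockout lists. H3K27ac and NANOG are highest at the centre, whereas H3K4me1 dips there and peaks about 1 kb to either side, and the NANOG panels have a shorter axis.

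NANOG overlapped a similar share of the regions in both WT replicates, and most of the regions with NANOG were in the list of 1 replicate only. Replicate 1 gave 111 regions (19.8%, interval 16.6 to 23.4) and replicate 2 gave 113 (20.2%, interval 16.9 to 23.7), with 44 regions in both, 67 in the first only, 69 in the second only and 380 in neither. The 44 are 39.6% of the first and 38.9% of the second group. In equal windows the WT replicate 1 list overlapped 20.0% of the BACH1 regions, 3.91% of the WT H3K4me3 peaks without BACH1 and 21.1% of the other BACH1 peaks. For replicate 2 the shares were 20.5, 12.7 and 6.11%. Windows on the host centres gave 14.4 and 16.0%, so part of the gap to H3K4me3 peaks without BACH1 goes with where the window lies. Beside the other BACH1 peaks, the share at these regions was about equal in WT replicate 1 and higher in WT replicate 2. In both WT replicates it lay above that of H3K4me3 peaks without BACH1. Over whole H3K4me3 peaks the contrast also held in each width quintile in replicate 1, from 17.2 against 3.19% in the narrowest to 35.0 against 15.6% in the widest. In replicate 2 the second quintile went the other way, with 12.5 against 13.6%.

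Distances between NANOG and BACH1 are bounded by the overlap that chose the pairs. The median distance from the NANOG summit to the BACH1 centre was 205 bp in WT replicate 1 and 214 bp in WT replicate 2, and 164 and 225 bp in the knockout lists. At other BACH1 peaks it was 126 and 147 bp in the WT lists and 100 and 156 bp in the knockout lists, smaller in each. With the strongest NANOG peak taken at each region, median fold enrichment was 4.67 in WT replicate 1 (4.80 over the whole WT list). In WT replicate 2 it was 5.90 (5.52 over the list), so these NANOG peaks were near their list's median. Regions with NANOG in both WT replicates had H3K27ac in 40 of 44 cases (90.9%) and H3K4me1 in 30 (68.2%), beside 76.6 and 43.4% of the 380 with NANOG in neither.

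The strongest NANOG peak among regions in both WT replicates was the same one in each. It lay at chr17:35640607-35641918, with fold enrichments of 21.1 and 40.7 in the WT replicates and 25.9 and 47.1 in the knockout replicates. Its summit stood 800 to 821 bp from the BACH1 centre in the 4 lists, so the overlap is at the border of the BACH1 peak. In replicate 1 it was followed by chr5:33877771-33879245 (20.7), chr7:87159563-87161141 (9.44), chr19:44355037-44356171 (9.01) and chr1:88207504-88208523 (8.86). In replicate 2 it was followed by chr11:117835852-117837420 (16.1), the chr7:87159563 region (14.6), chr11:48684610-48685410 (14.3) and the chr19:44355037 region (13.5). None of these 7 was among the 10 strongest BACH1 peaks of the regions. The highest BACH1 −log10 p was 20.5, at chr7:87159563, within the strongest quintile (14.8 to 87.0). The others had 7.43 to 8.08, just above the regions' median of 7.29.

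**Figure D3:**
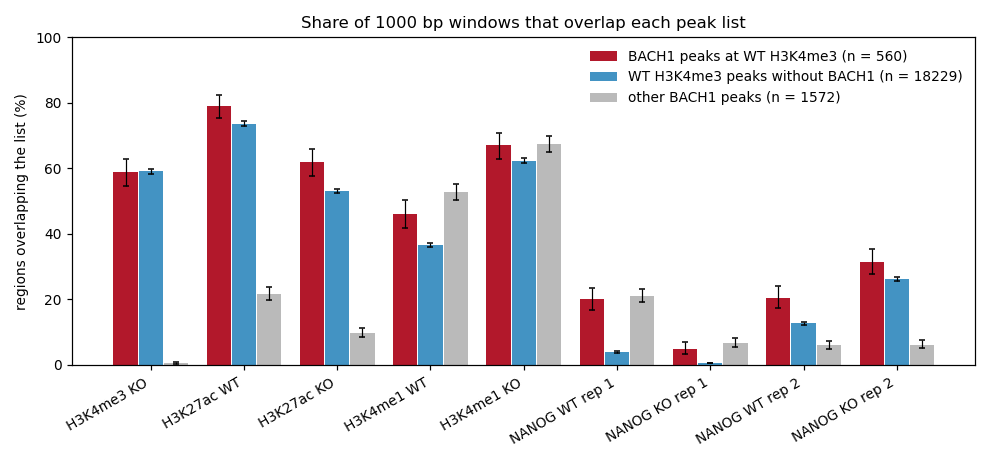
Bars give the percentage of 1000 bp windows that overlap each list, with exact 95% intervals over windows, for the 560 BACH1 peaks at WT H3K4me3, for WT H3K4me3 peaks without BACH1 and for the other BACH1 peaks. NANOG of WT replicate 1 stands at 20.0, 3.91 and 21.1% in these groups, and knockout H3K4me3 at 58.8, 59.1 and 0.509%.

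The comparison of genotypes asked whether H3K4me3 at BACH1 sites is called in the Bach1 knockout cells. Of the 550 host peaks, 216 had no knockout H3K4me3 peak (39.3%, interval 35.2 to 43.5). Over all WT H3K4me3 peaks the share was 40.5%, so hosts of BACH1 stood at the background of the list. With the authors' merged BACH1 list in place of the single one, 815 of 2506 hosts had none (32.5%, interval 30.7 to 34.4), which lies below that background. It followed the strength of the WT peak: by quintile of WT score from weakest to strongest, 97.0, 83.2, 28.3, 4.59 and 1.42% of hosts had no knockout peak, beside 97.5, 79.4, 23.1, 2.11 and 0.111% of peaks without BACH1. In quintiles 2 to 5 the values of the hosts were higher, with 28 of 99, 5 of 109 and 2 of 141 hosts in the upper 3, and the intervals of the hosts held the other value in quintiles 2, 3 and 4. By quintile of width the shares were 84.5, 68.1, 48.7, 34.3 and 18.6% for hosts and 80.3, 53.6, 33.4, 19.5 and 14.5% for the others, with the hosts higher in each quintile. The intervals of the hosts lay above the other value in width quintiles 2, 3 and 4, at 56.0 to 78.6, 37.2 to 60.3 and 25.3 to 44.2%. They cover the counting of peaks only, and the difference was not tested. With both lists cut to their 11157 strongest peaks, 33 of 345 hosts (9.57%, interval 6.68 to 13.2) and 8.11% of all WT peaks had none. The regions overlapped stood at 63.4% in WT (interval 59.3 to 67.4) and 58.4% in the knockout (interval 54.2 to 62.5) under that setting. These intervals overlap, and the choice of regions by the WT H3K4me3 list favours WT in this pair. Of the 319 knockout H3K4me3 peaks at the regions, 0 lacked a WT peak, beside 0.359% of that list, a count that the choice of regions nearly fixes.

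**Figure D4:**
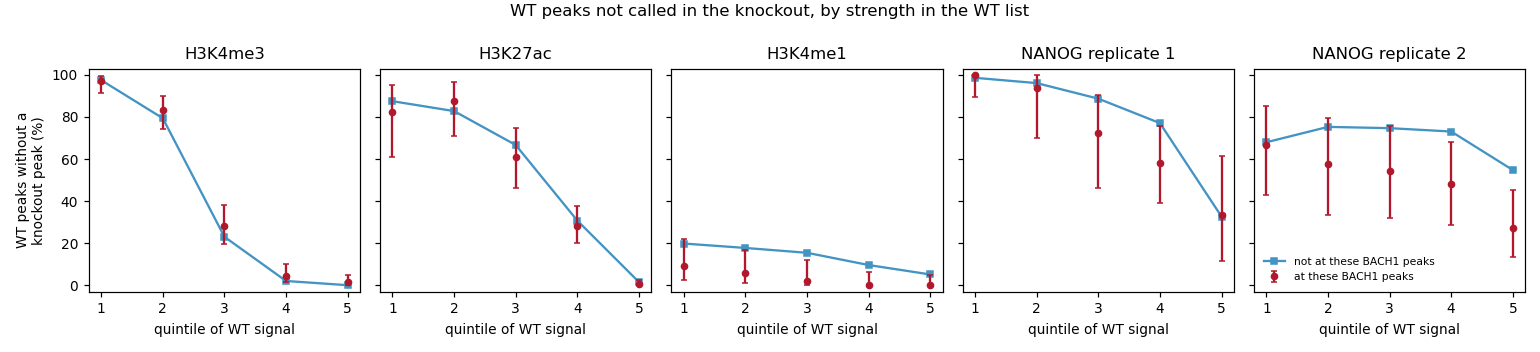
For each mark, the vertical axis gives the percentage of WT peaks with no overlapping knockout peak and the horizontal axis the quintile of WT signal from weakest (1) to strongest (5). Red points with exact 95% intervals are WT peaks at the 560 BACH1 regions and blue squares are all other WT peaks. For H3K4me3 the red points run along the blue line from 97.0 to 1.42%, and for NANOG replicate 2 they lie below it in each quintile.

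Counted by BACH1 peak, 342 of 560 had a host with a knockout H3K4me3 peak and 218 had none. Among the 342, the knockout peak reached the BACH1 peak itself in 326 cases (95.3%). The 2 classes differed in the marks that the choice of regions did not use. WT H3K27ac overlapped 85.7% of the 342 and 66.5% of the 218, whereas WT H3K4me1 overlapped 35.7 and 65.1%. In knockout cells H3K27ac overlapped 72.2 and 44.5%, and H3K4me1 57.0 and 83.5%. WT NANOG gave near equal shares in the 2 classes, 19.3 and 20.6% in replicate 1 and 20.5 and 19.7% in replicate 2. Knockout NANOG stood at 5.26 and 4.13% in replicate 1 and at 36.0 and 23.9% in replicate 2. Hosts without a knockout peak were narrower and weaker in WT (medians 2358 bp and −log10 p 10.2) than those with one (3866 bp and 63.8), and their BACH1 peaks had a median −log10 p of 7.95 against 6.83. How much of the contrast in the marks goes with host strength was not tested.

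Besides the 3 at the top of the BACH1 ranking, the strongest BACH1 peaks without knockout H3K4me3 were chr16:30511768-30513118 (BACH1 38.6, host 21.1) and chr15:38313097-38314956 (34.6, host 21.0). The first had no H3K27ac peak in either list and had H3K4me1 in both, with fold enrichments of 3.54 and 4.47. The second had H3K27ac in both lists, at −log10 p of 110 in WT and 24.6 in knockout, and H3K4me1 in the knockout list only.

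H3K27ac at the regions mostly had a knockout counterpart. By region, 339 overlapped H3K27ac in both genotypes, 99 in WT only, 5 in the knockout only and 117 in neither. Of the 472 WT H3K27ac peaks at the regions, 111 had no knockout peak (23.5%, interval 19.8 to 27.6), beside 53.9% of all WT H3K27ac peaks and 58.3% of the 369 at other BACH1 peaks. Within quintiles of WT score the shares were near those of the other WT peaks, at 82.6, 87.5, 61.2, 28.3 and 0.784% against 87.5, 82.8, 66.7, 30.8 and 1.60%. The regions hold 54.0% of their H3K27ac peaks in the strongest quintile, beside 49.4% in the widest quintile. By quintile of WT width the shares at the regions were lower in each, at 68.4, 63.0, 45.8, 19.8 and 4.29% against 83.7, 73.9, 58.7, 37.6 and 16.1%. With 25755 peaks in each list, H3K27ac overlapped 69.5% of the regions in WT and 61.4% in the knockout. Of the 358 knockout H3K27ac peaks at the regions, 4 (1.12%) had no WT peak, beside 17.7% of that list.

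H3K4me1 was called at more regions in the knockout. It overlapped 264 regions in WT and 377 in the knockout (67.3%, interval 63.3 to 71.2), with 248 in both, 16 in WT only and 129 in the knockout only. In equal windows the knockout-only share was 23.6% at these regions and 29.1% at WT H3K4me3 peaks without BACH1. Of the 262 WT H3K4me1 peaks at the regions, 8 (3.05%, interval 1.33 to 5.93) had no knockout peak, beside 13.5% of all WT H3K4me1 peaks and 3.02% of those at other BACH1 peaks. By quintile of WT width, narrowest first, the shares were 35.7, 3.85, 7.14, 0 and 0% at the regions and 32.1, 19.3, 11.8, 3.99 and 0.708% elsewhere. The widest quintile held 50.4% of the peaks at the regions. By quintile of fold enrichment they were 9.30, 6.12, 2.33, 0 and 0% against 19.9, 17.8, 15.5, 9.69 and 5.21%. How much of the gap goes with peak width was not tested. Of the 370 knockout H3K4me1 peaks at the regions, 51 (13.8%) had no WT peak, beside 47.4% of the knockout list. With the lists cut to 35990 peaks each, H3K4me1 overlapped 47.1% of the regions in WT and 56.8% in the knockout, a narrower gap.

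**Figure D5:**
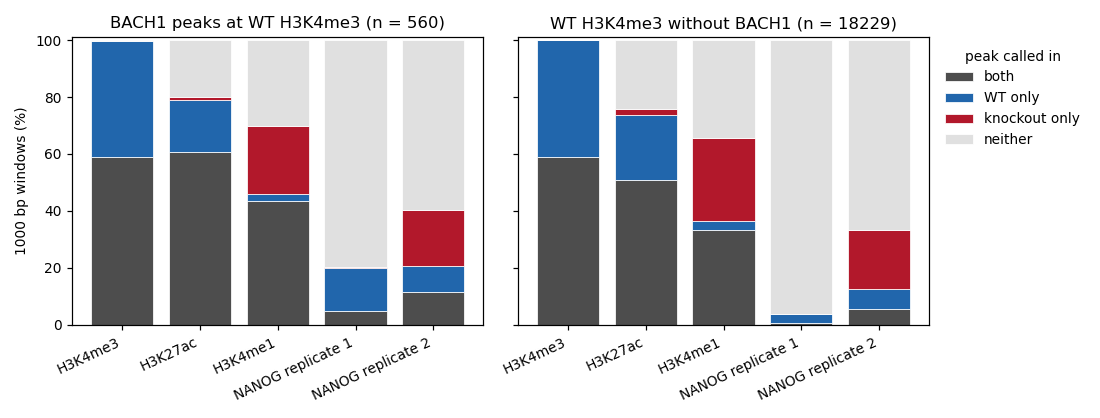
Stacked bars split 1000 bp windows by whether a peak of each mark overlaps in both genotypes, in WT only, in the knockout only or in neither, for the 560 BACH1 regions (left) and for WT H3K4me3 peaks without BACH1 (right). H3K4me1 and NANOG replicate 2 have large knockout-only parts on both sides, and NANOG replicate 1 has almost none.

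For NANOG the replicates went opposite ways, as the lengths of their lists did. In replicate 1 the regions overlapped stood at 111 in WT and 27 in the knockout, with 26 in both. In replicate 2 they stood at 113 and 175, with 65 in both and 110 in the knockout only. Cut to equal numbers of the strongest peaks, replicate 1 gave 22 regions in WT and 27 in the knockout (3.93 and 4.82%, 2070 peaks per list), which turns the direction, and replicate 2 gave 113 and 120 (20.2 and 21.4%, 10031 peaks per list). Knockout counts were the higher in replicate 2 at both list lengths and in replicate 1 at the shorter length only, with intervals that overlap at equal numbers.

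Counted by NANOG peak, the replicates also differed. Of the 113 WT peaks at the regions in replicate 1, 84 had no knockout peak (74.3%, interval 65.3 to 82.1), beside 78.5% of that WT list and 66.4% of the 327 at other BACH1 peaks. Of the 122 in replicate 2, 59 had none (48.4%, interval 39.2 to 57.6), beside 69.0% of that list and 61.7% of the 107 at other BACH1 peaks. In replicate 2 the share at the regions was below that of the other WT peaks in each quintile of fold enrichment, with 27.3 against 54.8% in the strongest. These quintiles held 19 to 33 peaks at the regions, and in quintiles 1, 2 and 3 the intervals held the other value. By quintile of width the narrowest went the other way, with 92.9% (13 of 14 peaks) against 84.2%. In the remaining width quintiles the share at the regions was the lower one. Of the 28 knockout peaks at the regions in replicate 1, 1 had no WT peak (3.57%), beside 3.57% of the list, and of the 191 in replicate 2, 128 had none (67.0%), beside 84.5%.

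Combinations of marks sorted the regions in WT cells into H3K27ac without H3K4me1 (252, 45.0%), both marks (186, 33.2%), H3K4me1 alone (78, 13.9%) and neither (44, 7.86%). NANOG of either replicate overlapped 29.0, 39.8, 32.1 and 18.2% of these 4 classes. The replicates differed: replicate 1 overlapped 30, 54, 22 and 5 regions of the classes, and replicate 2 overlapped 57, 46, 7 and 3. With H3K27ac alone replicate 2 gave more regions, and with H3K4me1 alone replicate 1 did. The pooled shares thus describe neither replicate by itself. In the knockout lists the same classes held 139, 205, 172 and 44 regions. The class with H3K27ac alone was thus smaller and that with H3K4me1 alone larger in the knockout lists, which held fewer H3K27ac and more H3K4me1 peaks in all.

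At the extremes, 4 regions were in all 9 other lists and 8 were in none. Those in all were the chr17:35640607 and chr5:33877771 regions (the top of the WT replicate 1 NANOG ranking above), chr11:97522785-97524258 and chr11:3192006-3193600. Their BACH1 −log10 p was 7.77, 7.43, 6.34 and 5.23, on both sides of the median of the regions, and their hosts were 8005, 6770, 25906 and 8756 bp wide. The 8 in none had weak hosts, with −log10 p from 6.29 at chr14:71180437-71181442 to 16.3 at chr5:106159869-106160703, and the strongest BACH1 peak among them, chr5:145439706-145440271, reached 17.0.

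The 5 regions in the widest hosts lay in 4 long H3K4me3 domains. The host of chr12:87828688-87829543 spanned 27654 bp, with the BACH1 centre 8232 bp from its own, and no knockout H3K4me3 peak reached the BACH1 peak although the host had one. Hosts of chr11:97522785-97524258 and chr11:55281289-55284015 spanned 25906 and 20536 bp, with the BACH1 centre 4011 and 8475 bp from the host's. The last of these had a −log10 p of 6.01 over its great length and no knockout peak. The fourth, of 16291 bp, held a pair of BACH1 peaks, chr9:59500852-59501951 at its edge (BACH1 21.9, H3K4me1 in both genotypes, no H3K27ac) and chr9:59504545-59506224 inside (BACH1 7.61, H3K27ac in both genotypes, no H3K4me1).

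Paired BACH1 peaks in a host were rare, with 11 hosts holding 2 and none holding 3. Among them, chr7:34949307-34955451 held peaks of 5.19 and 5.54 and chr11:69477761-69486934 held peaks of 5.66 and 6.12, both in hosts with −log10 p of 153 and with a knockout peak. The host chr18:67798919-67802523 (34.3) held peaks of 6.38 and 6.42 and had a knockout peak. The host chr11:50020792-50026075 (47.3) held peaks of 14.8 and 8.05 and had none, although its score lies in the quintile in which 2.18% of all WT peaks lack one.

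Some marks followed the strength of BACH1 among the regions. By quintile of BACH1 −log10 p, from 5.01 to 5.60 in the weakest to 14.8 to 87.0 in the strongest, knockout H3K4me3 overlapped 67.0, 65.2, 55.4, 50.0 and 54.5% of the regions. WT H3K4me1 overlapped 42.9, 28.6, 50.9, 51.8 and 61.6%, and knockout H3K4me1 58.9, 56.2, 69.6, 74.1 and 77.7%. WT H3K27ac (77.7, 82.1, 76.8, 75.9 and 78.6%) and WT NANOG of replicate 1 (20.5, 19.6, 21.4, 16.1 and 21.4%) had no such course. BACH1 strength is part of how the peaks were called, so these shares are a description.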

How the data were processed

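Per the submitters' processing notes, mm9 is the build, and Trim Galore, Bowtie2, MACS2, STAR, StringTie 1.3.4d, limma, HISAT2 and HOMER are named without roles. In the deposited BACH1, H3K4me3 and H3K27ac lists a peak's score equals −log10 p times 10, after the layout of early MACS versions, and was divided by 10 here. The deposited NANOG and H3K4me1 lists give a score, the fold enrichment ratio, and −log10 p and q as the authors' caller wrote them. RNA values are deposited TPM. Peaks were called per list, with no depth given, and scores are the authors' and were used within a list only. The merged BACH1 list holds positions only.

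Overlaps of at least 1 bp, 1000 bp windows around centres, quintiles of each WT list and exact Clopper-Pearson 95% intervals were computed with Python 3.11.15, numpy 2.4.6, pandas 2.3.3 and scipy 1.17.1. Figures used matplotlib 3.10.9. The overlap code was tested on simulated intervals. Of the 12 lists, peaks outside chromosomes 1 to 19, X and Y were left out (at most 17 per list). With 1 list per mark and genotype no test was run. The planned RNA comparison and motif search needed an mm9 annotation or genome and were not run. Regions named are the 10 strongest, the 5 strongest without knockout H3K4me3, the 5 with the highest NANOG fold in each WT list among those in both, the 5 in the widest hosts, those at the edge of the rule, and 5 of the 11 hosts with 2 peaks (ties taken by lowest start coordinate). Those in all or none of the lists were named after their values were seen. Members and comparisons were chosen with earlier results of these data known. Inputs were not used here.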

Additional observations from a re-analysis of the deposited data

How the results depend on the processing

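No paired analysis was possible because each histone mark has 1 list per genotype and no test was run; the 2 NANOG replicates are given apart. Alternatives with RNA or sequence were not run, as no gene could be tied to a region. Of 99 alternative values, 44 lay within the interval of the reported value (or 1.5 times a count) and 55 did not. The number of regions was 2780 with the merged list and 181 at BACH1 −log10 p of at least 10. List lengths limit every WT to knockout comparison, since depth is unknown. The settings with equal numbers of peaks, 1000 bp windows and no chromosome 11 were chosen after seeing the data.

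Below, shares of regions are in percent. With 50% of the BACH1 peak covered they were 62.3 and 42.0 for H3K27ac (WT, knockout), 31.8 and 49.8 for H3K4me1, 13.2 and 2.14 for NANOG replicate 1 and 3.21 and 5.89 for replicate 2. Peaks of both NANOG replicate 2 lists have a median width of 263 bp. A peak of that width cannot cover 50% of a region of the median width, 928 bp. Within 1000 bp the shares were 87.7 and 72.0, 72.5 and 89.6 for the histone marks, and 24.8 and 39.6 for NANOG replicate 2. For regions at BACH1 −log10 p of at least 10, knockout H3K4me3 was 52.5, H3K4me1 59.1 and 77.3, and WT NANOG of replicate 2 16.0. With the merged list, knockout H3K4me3 was 64.9, H3K27ac 65.0 and 46.2, H3K4me1 38.6 and 61.9, NANOG replicate 1 12.0 and 3.13, and knockout replicate 2 19.7. With only mark peaks at or above their list's median, knockout H3K4me3 was 34.5, H3K27ac 68.4 and 47.5, H3K4me1 27.1 and 49.5, NANOG replicate 1 9.11 and 1.61, and replicate 2 11.6 and 22.3. With equal numbers, WT H3K27ac was 69.5, knockout H3K4me1 56.8, WT NANOG replicate 1 3.93 and knockout replicate 2 21.4.

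Hosts without a knockout H3K4me3 peak were 25.1% at host −log10 p of at least 10 (24.9% of all such WT peaks), 45.1% for BACH1 −log10 p of at least 10 and 32.5% with the merged list (40.5% of all WT peaks in both cases), and 9.57% with equal numbers (8.11% of all). For WT H3K27ac peaks the share was 17.2% within 1000 bp, 13.0% at or above the median and 14.6% with equal numbers (31.3% of all). For WT H3K4me1 peaks it was 0% at or above the median and 15.3% with equal numbers (28.7% of all). For NANOG replicate 1 it was 51.0% at or above the median and 40.9% with equal numbers (35.8% of all), and for replicate 2 36.1% within 1000 bp, 38.6% at or above the median and 60.7% with equal numbers (77.0% of all). The cause of these shifts was not tested beyond the construction of each setting.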

Other observations

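The regions were uneven over chromosomes. Chromosome 11 held 97 of the 560 (17.3%) and 9.29% of WT H3K4me3 peaks, and 5.33% of its H3K4me3 peaks carried BACH1, beside 2.93% over all chromosomes. Chromosome 8 came next, with 47 regions (8.39%) against 5.83% of WT H3K4me3 peaks. The other BACH1 peaks had 8.97 and 6.93% on these 2 chromosomes, and the merged BACH1 list 22.2 and 11.6%. Regions on chromosome 11 were about as strong as elsewhere, with a median BACH1 −log10 p of 7.10 against 7.33 on chromosomes other than 8 and 11, and 26.8 against 33.2% of them reached 10. The hosts of the regions had a knockout peak in 57.7% of cases on chromosome 11, 48.9% on chromosome 8 and 63.2% elsewhere. The same share over all WT H3K4me3 peaks of each chromosome was not computed, so these values have no background beside them. Chromosome 11 held 9.29% of the WT and 8.66% of the knockout H3K4me3 list, and chromosome 8 held 5.83 and 5.64%. Chromosome X held 11 regions and chromosome Y none.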
